A study of Mus musculus with 6 samples.

Results

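Interleukins are the signalling proteins through which leukocytes, stromal cells and epithelial cells of the colon address each other, and this account covers the genes of the crypt expression table used here whose symbol begins with Il and a number, leaving out 1 gene. The rule returned 53 of 18049 rows. Il4i1 and Il4i1b carried identical values in all 6 mice and were counted once, which left 52 distinct genes. Of these, 15 encode ligands or antagonists, 35 encode receptor chains or soluble receptors, and the remaining pair, Il18bp and Il4i1, encode a binding protein and an enzyme.

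RNA-Seq libraries were made from total RNA of colonic crypts from 3 control mice and 3 GSK503-treated mice, with 1 library per mouse. All 6 were mice of the same Lynch syndrome model on a C57BL/6J background, in which Villin-Cre acts in intestinal epithelium and the Tgfbr2 locus carries a humanized microsatellite, and all were placed on a Western-style diet from 8 weeks of age. The treated mice received the EZH2 inhibitor GSK503 at 200 μg/kg body weight by tail vein for 9 weeks, and the controls received 20% captisol in PBS. EZH2 is the methyltransferase that places the repressive H3K27me3 mark, and the comparison asks whether its inhibition was accompanied by different levels of interleukin transcripts in the crypt preparation.

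Interleukins act through receptors assembled from several chains. Receptors of the IL-1 family recruit the adaptor MYD88 and those of the IL-17 family recruit ACT1, both leading to NF-κB, whereas most other interleukin receptors signal through JAK kinases and STAT factors. In the colon the ligands come largely from lymphocytes, innate lymphoid cells, macrophages and stromal cells, while the epithelium carries receptor chains for IL-22, IL-17, IL-4 and IL-13 and is itself a source of IL-18, IL-7, IL-15 and the IL-1 receptor antagonist.

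Values are TMM-scaled CPM, that is, estimated read counts relative to a library size adjusted by the trimmed mean of M values, and the estimated totals behind them ran from 108162783 to 135085020 counts per library. The floor below which a gene was taken as not detected was 3 counts, or 0.0228 to 0.0271 CPM. Epithelial markers were abundant, and the summed level of 5 of them was 8884 to 9757 in controls and 9418 to 10779 in treated mice. The libraries stood apart in ways that bear on interleukin genes. All controls expressed Y-linked genes (Uty 42.5 to 53.7, against 0.67 to 1.08 in treated mice) and all treated mice expressed Xist (825 to 1236, against 0.419 to 0.936 in controls), so sex and treatment cannot be told apart in any comparison here. The third treated mouse carried more stromal and macrophage RNA than the other treated mice: summed over 6 smooth muscle markers the level was 122 in that mouse against 4.52 and 4.26 in the others, with controls at 20.9, 90.1 and 46.2. The second control held the most B cell RNA. Its macrophage marker sum was the highest of the 6 mice at 124, of which Cd14 made up 75.0. Csf1r, Adgre1, C1qa, C1qb, C1qc and Lyz2 were highest in the third treated mouse, and Cd14, Cd68 and Mrc1 in a control. Summed over 5 B cell markers the level was 9.75, 26.4 and 3.77 in controls and 2.82, 1.11 and 3.52 in treated mice, and all 5 had lower mean log2 values in treated mice, with a median log2 fold change of -1.98. None of the 5 passed an adjusted p of 0.05 by limma, 1 passed 0.1 (Ms4a1, -2.74, adjusted p = 0.0875) and 4 reached an unadjusted p of 0.05. Among the controls, Il1rl1 (1.03, 1.64 and 0.850), Il1b, Il22ra2 and Il10ra were likewise highest in the second. Other interleukin genes, such as Il1rn, were highest in another control. The part of B cells in the interleukin values was not tested.

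No interleukin gene differed between groups at an adjusted p below 0.05 by limma, and none did by limma-voom. Over all genes 107 of the 16670 tested, or 0.642%, passed that threshold by limma, 83 higher (0.498%) and 24 lower (0.144%) in treated mice, and 0.624% passed by limma-voom. Of the 52 interleukin genes 49 were tested, because Il12a, Il1rapl1 and Il5ra did not reach 0.1 CPM in 3 mice. At an adjusted p below 0.1 only Il1rl1 passed, lower in treated mice, against 1.97% of all genes in either direction and 0.558% lower. An unadjusted p below 0.05 was reached by 5 of the 49 genes (10.2%, against 13.3% of all genes), namely Il17rc, Il22ra1 and Il6ra with higher values (7.06% of all genes) and Il1rl1 and Il17ra with lower values (6.27% of all genes). Groups did not overlap for 8 genes (16.3%, against 19.1% of all genes), 3 of them higher and 5 lower in treated mice (9.84% and 9.22% of all genes).

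The ligands as a group showed no gene with separated groups. Of 14 tested, 5 had a higher and 9 a lower mean log2 value in treated mice, and none reached an unadjusted p of 0.05. Their median log2 fold change was -0.17, against -0.01 over all genes tested. Of 33 receptor genes tested, 15 were higher and 18 lower, with a median log2 fold change of -0.03. The receptors held all 8 genes without overlap between groups (3 higher, 9.09% against 9.84% of all genes, and 5 lower, 15.2% against 9.22%): Il17rc, Il22ra1 and Il17rb lay above the controls in every treated mouse, and Il1rl1, Il17ra, Il1r1, Il12rb1 and Il9r lay below them in every treated mouse. Scaling by library total alone moved the median of all genes to -0.12 and left 12 interleukin genes higher and 37 lower, so the balance of directions depended on the scaling.

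**Figure D1:**
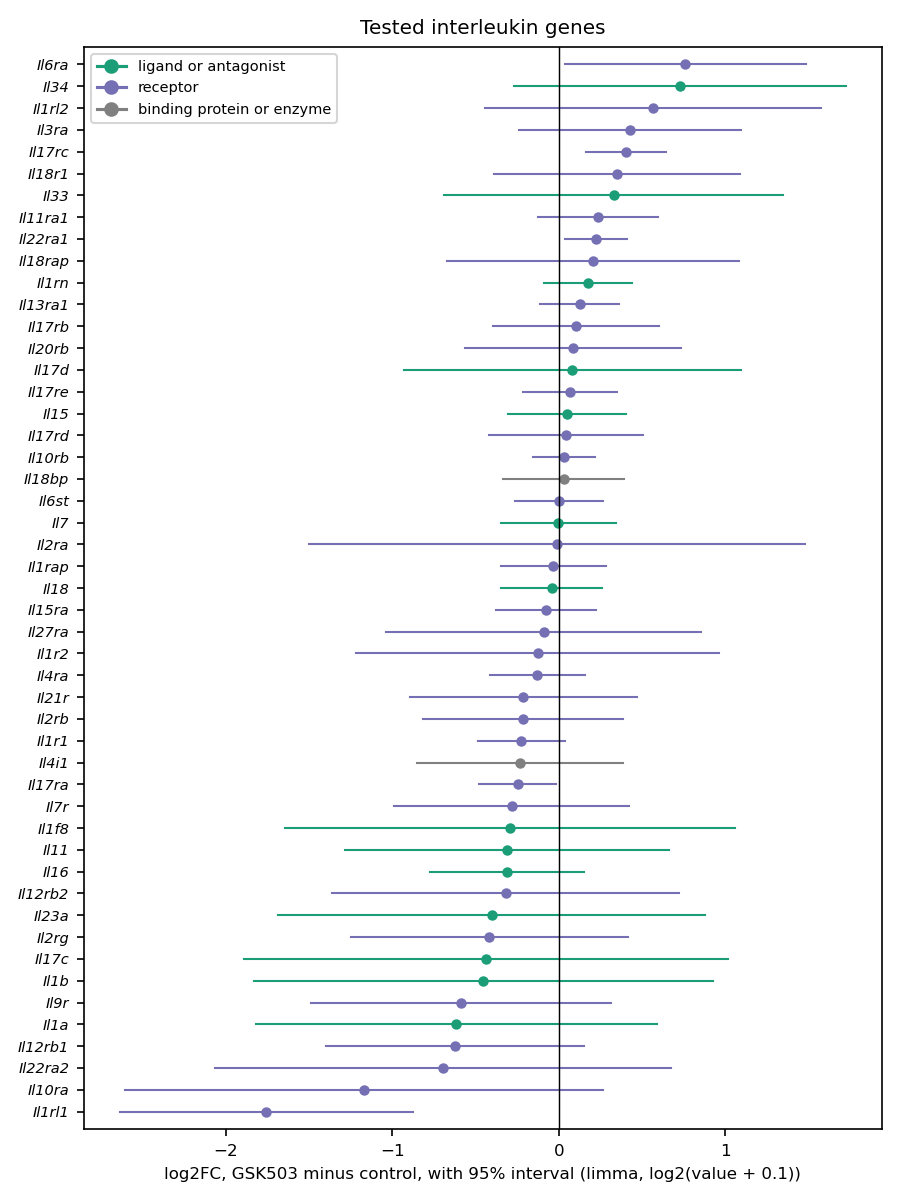
Log2 fold change, GSK503 minus control, on the log2(value + 0.1) scale for each of the 49 tested interleukin genes, ordered by size, with the 95% interval from limma; colours mark ligands or antagonists, receptors, and the binding protein and enzyme. The interval of Il1rl1, from -2.64 to -0.88, lies farthest below 0, and those of Il17rc, Il22ra1 and Il6ra lie above it.

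Most receptor and ligand transcripts were scarce in this preparation. Per kilobase of exon, 3 of 15 ligands and 11 of 35 receptors reached 1 CPM. The highest receptor levels per kilobase were those of Il13ra1 (21.3), Il17rc (19.4), Il22ra1 (13.1), Il10rb (8.72), Il4ra (6.87) and Il6st (4.79), and the highest ligand levels were those of Il18 (8.17), Il1rn (6.89) and Il7 (1.41). These are receptor chains for IL-13, IL-17, IL-22 and IL-4, with the chains IL10RB and gp130 that several receptors share. At the floor of 3 counts, 33 receptors and 12 ligands were detected in all 6 mice. The lymphocyte cytokines Il22, Il17a, Il17f, Il13, Il4, Il5, Il10, Il21 and Il2 were not analysed here.

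**Figure D2:**
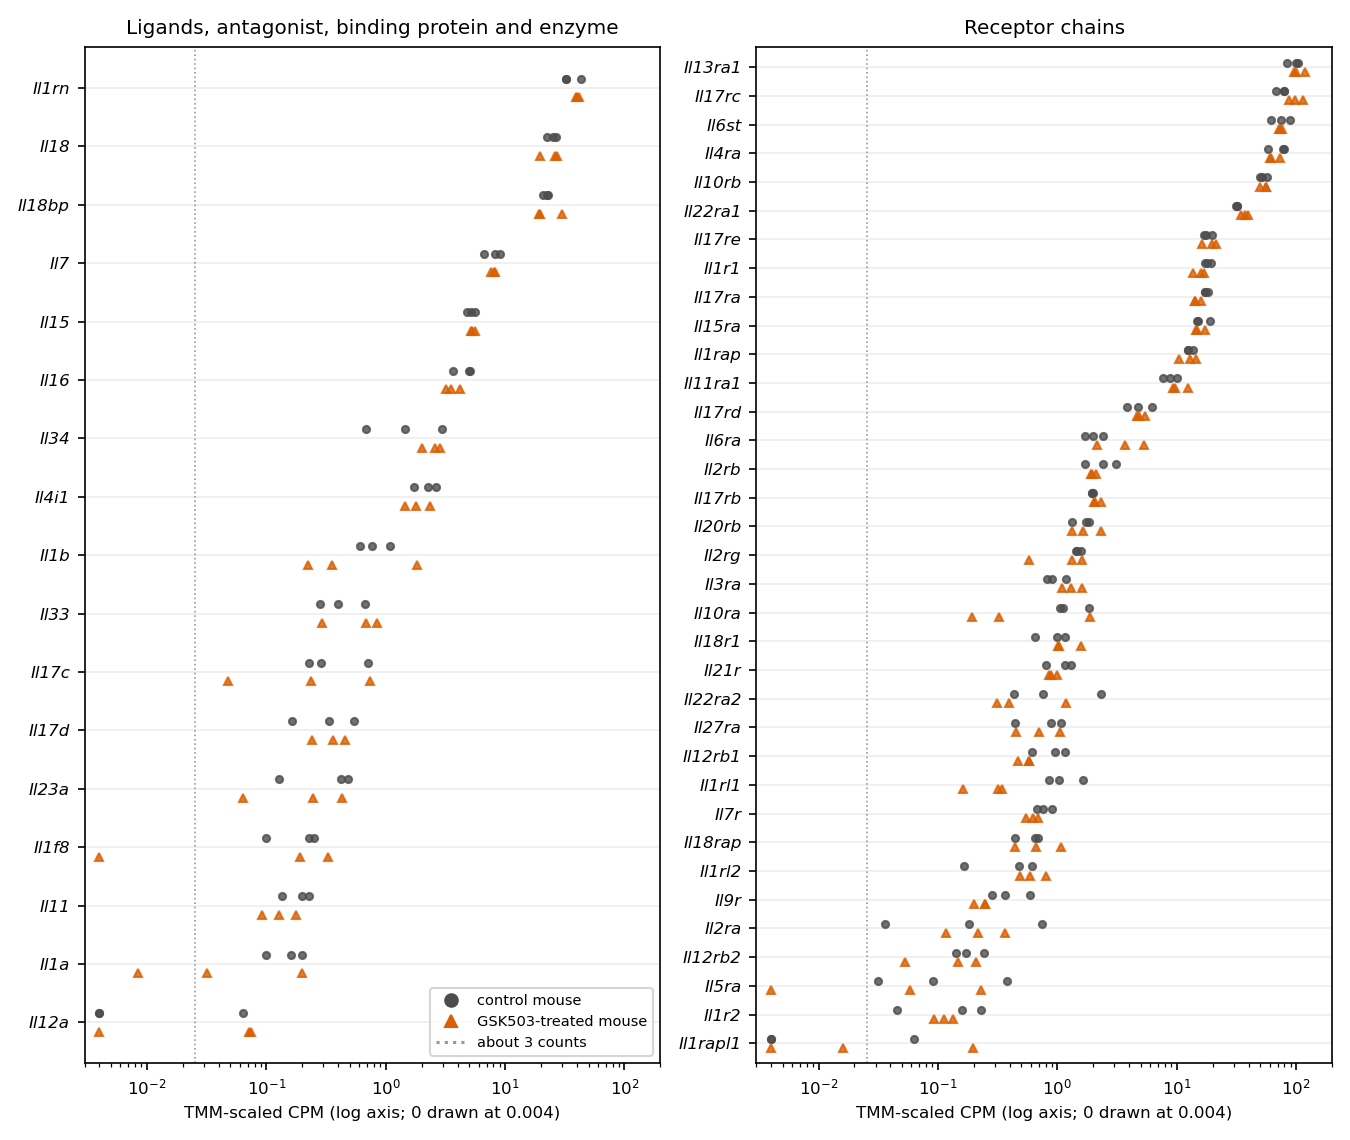
TMM-scaled CPM (log axis, zeros drawn at 0.004) of each interleukin gene in each mouse, with grey circles for the 3 control and orange triangles for the 3 GSK503-treated mice; genes are ordered by mean, and the dotted line marks about 3 counts. For most genes the symbols of both groups intermingle, while Il1rl1 and Il12rb1, both near 1 CPM or below, have all triangles left of all circles.

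Among IL-1 family ligands, Il1rn, which encodes the antagonist that blocks the IL-1 receptor, was at 43.4, 32.4 and 32.3 CPM in controls and at 40.0, 41.3 and 39.6 in treated mice. Il18, an epithelial cytokine stored as a precursor and cut by caspase-1, was at 22.5, 25.3 and 26.8 in controls and 19.6, 26.1 and 27.2 in treated mice. Groups overlapped for both genes, with log2 fold changes of 0.17 (95% interval -0.09 to 0.44) for Il1rn and -0.04 (-0.35 to 0.26) for Il18. Leaving out the first control brought that of Il1rn to 0.32, and leaving out the third control to 0.10. Il18bp, the secreted decoy that neutralises IL-18, was at 22.6, 20.6 and 22.7 in controls and 19.6, 19.2 and 29.9 in treated mice, and the third treated mouse was the highest of all 6. Its log2 fold change was 0.03 with all mice and -0.18 without the third treated mouse.

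Il1b, the inflammatory IL-1 of macrophages, was at 0.609, 1.09 and 0.763 in controls and at 0.356, 0.223 and 1.83 in treated mice. The first 2 treated mice were the lowest of the 6 and the third was the highest. Its log2 fold change was -0.45 (adjusted p = 0.803 by limma) with all mice and -1.23 (adjusted p = 0.187) without the third treated mouse. For Il1a too the third treated mouse was the highest of the 6, at 0.160, 0.0995 and 0.197 in controls and 0.00848, 0.0319 and 0.200 in treated mice. Without that mouse Il1a did not pass the filter on low values. Il33, the alarmin that is the ligand of the receptor encoded by Il1rl1, was at 0.282, 0.669 and 0.401 in controls and 0.687, 0.295 and 0.840 in treated mice, with overlapping groups and a log2 fold change of 0.33 (95% interval -0.69 to 1.35). That of Il33 was 0.08 without the third and 0.70 without the second treated mouse. Il1f8, which encodes IL-36β, ran from 0.0995 to 0.252 in controls and from 0 to 0.331 in treated mice.

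Il7 and Il15, which sustain lymphocytes through receptors with the common γ chain, had overlapping groups. Il7 was at 6.69, 8.28 and 9.06 in controls and 8.18, 7.61 and 8.02 in treated mice, a log2 fold change of -0.0024 with a 95% interval of -0.35 to 0.34. Il15 was at 4.83, 5.16 and 5.59 in controls and 5.64, 5.31 and 5.15 in treated mice, a log2 fold change of 0.05 with an interval of -0.31 to 0.40. These intervals bound any difference to less than about 0.4 on the log2 scale in either direction under this model.

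Il16, a chemoattractant for CD4+ cells, was at 4.94, 5.05 and 3.67 in controls and 3.51, 4.18 and 3.22 in treated mice, a log2 fold change of -0.31 (adjusted p = 0.560 by limma). Il34, a ligand of the CSF1 receptor, was at 0.685, 1.44 and 2.98 in controls and 2.0, 2.61 and 2.87 in treated mice, and the highest value belonged to a control. Il34 shares its span with Vac14 and Mtss2 on the opposite strand. The low ligands Il17c, Il17d, Il23a and Il11 ran between 0.0478 and 0.732 with overlapping groups, and Il12a reached the floor in 3 of 6 mice. Il4i1, an enzyme of myeloid and B cells that oxidises phenylalanine, was at 2.63, 2.27 and 1.72 in controls and 2.36, 1.79 and 1.47 in treated mice, and it overlaps Nup62 on the same strand.

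The receptor with the largest difference was Il1rl1, which encodes ST2, the receptor for IL-33 on mast cells, type 2 innate lymphoid cells and regulatory T cells. Il1rl1 was at 1.03, 1.64 and 0.850 CPM in controls and at 0.161, 0.319 and 0.341 in treated mice. Every treated mouse lay under every control. The means were 1.17 ± 0.413 and 0.274 ± 0.0981 (SD, n = 3 each), a ratio of controls to treated mice of 4.28, and limma gave a log2 fold change of -1.76 (SE 0.39, 95% interval -2.64 to -0.88) with an adjusted p of 0.0856. The estimated reads behind Il1rl1 ran from 108 to 181 in controls and from 19 to 41 in treated mice. Over the alternatives the adjusted p of Il1rl1 ran from 0.0551 to 0.259, and its log2 fold change ran from -2.07 by limma-voom to -0.76 with a pseudocount of 1. When any 1 mouse was left out it lay between -1.94 and -1.51. Leaving out any mouse other than the third treated one took the adjusted p above 0.1.

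Il1rl1 lies on chromosome 1 at 40468730 to 40504575 on the plus strand of GRCm39 and has 2 annotated start regions in RefSeq. The 250 bases before each start are shown because the gene-level values cannot tell transcripts of the distal start, the first listed, from those of the proximal one. Capitals mark matches to the letters AGATAA, which GATA factors bind, searched on both strands (TTATCT is the same site on the other strand). The first is at chr1:40468480-40468729 and the second at chr1:40478539-40478788, both on the plus strand.
Il1rl1 distal start: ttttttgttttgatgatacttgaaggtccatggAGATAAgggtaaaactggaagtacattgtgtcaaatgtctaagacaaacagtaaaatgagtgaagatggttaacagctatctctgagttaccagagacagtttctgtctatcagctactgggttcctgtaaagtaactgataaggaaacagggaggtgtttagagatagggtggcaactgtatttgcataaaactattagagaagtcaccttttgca
Il1rl1 proximal start: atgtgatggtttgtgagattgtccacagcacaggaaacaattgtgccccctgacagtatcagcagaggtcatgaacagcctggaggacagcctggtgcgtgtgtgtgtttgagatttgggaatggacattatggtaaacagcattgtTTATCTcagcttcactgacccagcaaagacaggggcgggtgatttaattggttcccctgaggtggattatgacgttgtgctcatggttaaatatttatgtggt
Each window held 1 match, 217 bases before the distal and 103 bases before the proximal start. AGATAA or its complement was in 9.99% of the 32851 RefSeq promoter windows of that length and in 7 of the 55 windows of interleukin genes (12.7%), which belong to the 42 interleukin genes that matched. A match describes the letters only.

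The nearest neighbours of Il1rl1 overlapped between groups. The 6 IL-1 receptor family genes of the cluster stand side by side on chromosome 1 in the order Il1r2, Il1r1, Il1rl2, Il1rl1, Il18r1 and Il18rap, and Il18r1 begins 136 bases after Il1rl1 ends. Il18r1, a chain of the IL-18 receptor, was at 1.15, 0.986 and 0.653 in controls and 1.02, 1.04 and 1.57 in treated mice. Il18rap, its partner chain, was at 0.647, 0.443 and 0.692 in controls and 0.441, 0.669 and 1.08 in treated mice. Both had overlapping groups and higher means in treated mice, with log2 fold changes of 0.35 (95% interval -0.39 to 1.09) and 0.20 (-0.67 to 1.08). Il1rl2, the IL-36 receptor, was at 0.617, 0.479 and 0.165 in controls and 0.585, 0.797 and 0.483 in treated mice.

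Il1r1, the signalling receptor for IL-1, was at 19.2, 17.9 and 17.3 in controls and at 17.1, 15.9 and 13.7 in treated mice. All treated mice were below all controls, by little, and the log2 fold change of -0.23 (SE 0.12) had an adjusted p of 0.451 by limma and was -0.14 without the third treated mouse. Il1r2, the decoy receptor, ran from 0.0452 to 0.228 in controls and from 0.0932 to 0.133 in treated mice. Il1rap, the accessory chain used by the receptors for IL-1, IL-33 and IL-36, lies on another chromosome and was at 12.6, 13.8 and 12.3 in controls and 10.5, 12.9 and 14.6 in treated mice. Taken within a mouse, the ratio of Il1rl1 to Il1rap was 0.0819, 0.119 and 0.0689 in controls and 0.0153, 0.0247 and 0.0234 in treated mice. This ratio was chosen after the values were seen and was given no test.

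**Figure D3:**
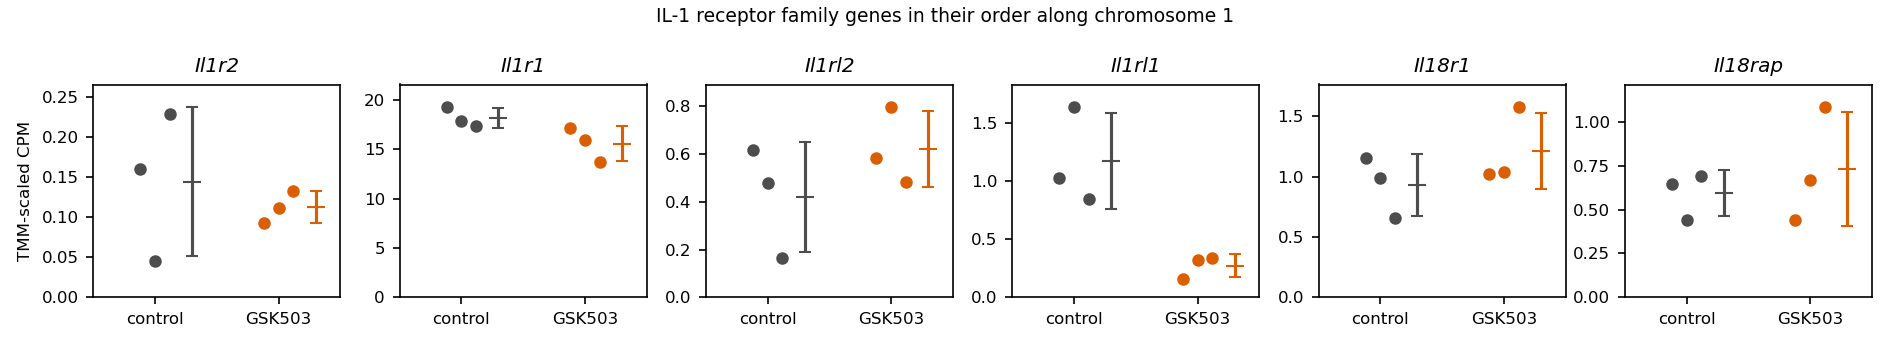
TMM-scaled CPM of the 6 neighbouring IL-1 receptor family genes in their order along chromosome 1; points are mice (grey for 3 controls, orange for 3 GSK503-treated) and bars show the mean and SD, each panel with its own axis from 0. Il1rl1 has all treated mice, at 0.161 to 0.341, under all controls, while Il18r1 and Il18rap beside it overlap between groups.

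ST2 is carried by cell types that are rare in crypts, and the levels of their markers were low. Summed over 3 mast cell markers the level was 0.443 to 1.49 in controls and 0.373 to 0.749 in treated mice. Of the T cell markers 5 of 6 had lower mean log2 values in treated mice, with sums of 10.4 to 17.3 and 9.72 to 12.7. Neither list held a marker at 0 in all mice or a marker past an adjusted p of 0.1 by limma. In these bulk libraries fewer cells of a type and less RNA per cell cannot be told apart, and the part of these cells in the Il1rl1 difference was not tested.

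Levels of the IL-17 receptor chains ran from 0.321 CPM per kilobase for Il17rb to 19.4 for Il17rc. Il17rc, the chain that pairs with IL17RA to bind IL-17A and IL-17F, was at 79.1, 79.4 and 68.1 CPM in controls and 114, 98.7 and 88.1 in treated mice. Every treated mouse lay above every control. The means were 75.5 ± 6.47 and 100 ± 13.2 (SD, n = 3 each), and the log2 fold change of 0.41 (SE 0.11, 95% interval 0.17 to 0.64) had an adjusted p of 0.135 by limma. Across the alternatives that adjusted p ran from 0.0647, without the third treated mouse, to 0.395. The log2 fold change was 0.29 when scaled by library total. A non-coding gene, Gm57002, overlaps Il17rc on the opposite strand.

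Il17ra, the chain common to the receptors of this family, was at 17.1, 18.2 and 17.2 in controls and at 15.8, 14.2 and 14.2 in treated mice. Here the direction was the opposite, with all treated mice below all controls. The log2 fold change was -0.25 (SE 0.10, 95% interval -0.48 to -0.02) with an adjusted p of 0.342 by limma, and -0.36 with an adjusted p of 0.0968 when scaled by library total. Within each mouse the ratio of Il17rc to Il17ra, which any scaling of the library leaves as it is, was 4.62, 4.36 and 3.96 in controls and 7.22, 6.94 and 6.20 in treated mice. As Il17rc lay above and Il17ra below the controls in every treated mouse, the groups of this ratio had to lie apart. The ratio was formed after the values were seen and carries no test.

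Il17re, the IL-17C receptor chain of epithelium, ends 668 bases before Il17rc on chromosome 6 and was at 19.8, 17.7 and 17.0 in controls and 16.2, 19.7 and 21.4 in treated mice. Its groups overlapped, and its log2 fold change was 0.07 (95% interval -0.22 to 0.35). Il17rb, a receptor chain of type 2 lymphoid cells, was at 1.96, 1.98 and 1.97 in controls and 2.31, 2.06 and 2.01 in treated mice. Although the groups of Il17rb did not overlap, the log2 fold change was 0.10 (adjusted p = 0.889 by limma). Il17rd, a member that dampens growth factor signalling, ran from 3.81 to 6.18 in controls and from 4.66 to 5.44 in treated mice.

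IL-22 reaches the epithelium through a receptor of IL22RA1 and IL10RB. Il22ra1 was at 32.2, 31.5 and 31.7 CPM in controls and at 34.6, 39.5 and 37.5 in treated mice. The controls were nearly identical and every treated mouse was above them. The means were 31.8 ± 0.369 and 37.2 ± 2.47 (SD, n = 3 each), with a log2 fold change of 0.22 (SE 0.08, 95% interval 0.04 to 0.41) and an adjusted p of 0.291 by limma. Scaling by library total brought the log2 fold change of Il22ra1 to 0.11. Il10rb was at 56.6, 50.1 and 52.1 in controls and 50.1, 56.1 and 56.0 in treated mice, with overlapping groups. The within-mouse ratio of Il22ra1 to Il10rb was 0.569, 0.629 and 0.609 in controls and 0.690, 0.704 and 0.668 in treated mice, again formed after the values were seen.

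Il22ra2 encodes the soluble binding protein that keeps IL-22 from its receptor and is made by dendritic cells. Il22ra2 was at 0.754, 2.32 and 0.433 in controls and at 0.314, 0.390 and 1.17 in treated mice. Its log2 fold change of -0.70 (95% interval -2.07 to 0.67) became -1.20 without the third treated mouse, with an adjusted p of 0.383 by limma, and -0.08 without the second control.

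**Figure D4:**
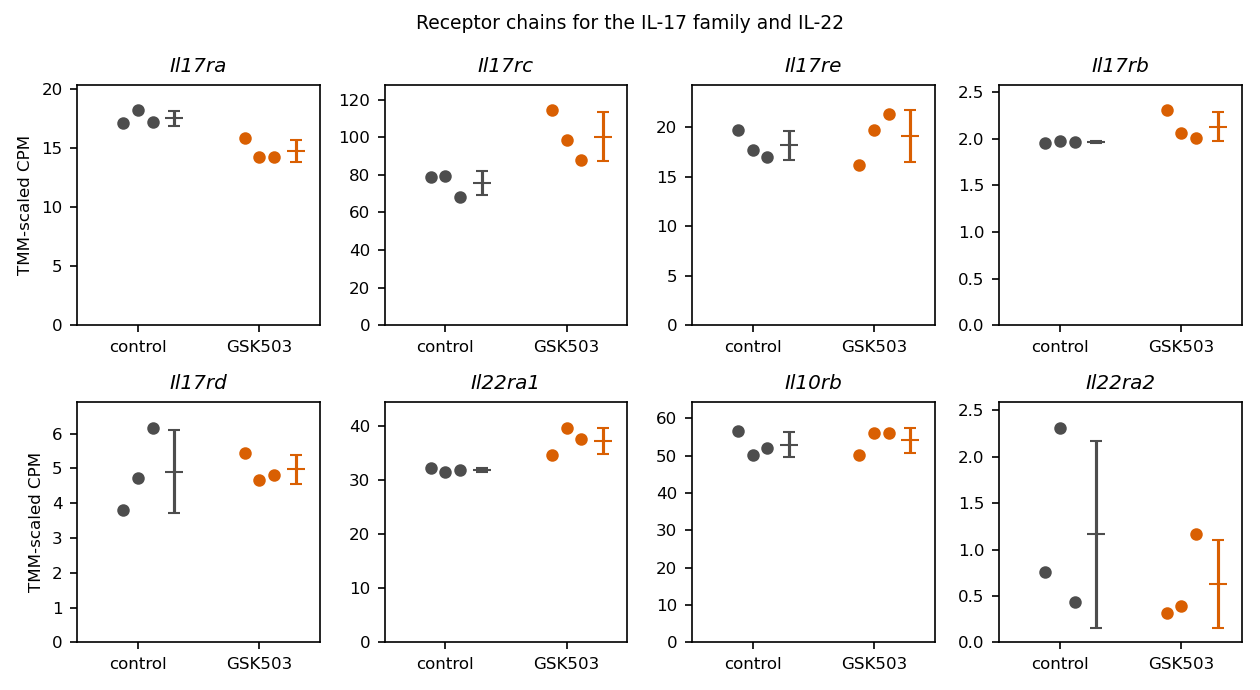
TMM-scaled CPM of receptor chains for the IL-17 family and IL-22 in each mouse (grey for 3 controls, orange for 3 GSK503-treated), with the mean and SD beside the points and each axis starting at 0. Il17rc, at 68.1 to 79.4 in controls and 88.1 to 114 in treated mice, and Il22ra1 were higher in every treated mouse, Il17ra was lower in every treated mouse, and Il17re, Il17rd, Il10rb and Il22ra2 overlapped.

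The promoter windows of Il17rc and Il22ra1 are shown because these were the abundant receptor genes whose treated mice all lay above the controls. They are the 250 bases before the RefSeq start, at chr6:113448166-113448415 and chr4:135455220-135455469 of GRCm39, both on the plus strand. Capitals mark AGATAA or TGANTCA, an AP-1 motif that reads the same on both strands.
Il17rc: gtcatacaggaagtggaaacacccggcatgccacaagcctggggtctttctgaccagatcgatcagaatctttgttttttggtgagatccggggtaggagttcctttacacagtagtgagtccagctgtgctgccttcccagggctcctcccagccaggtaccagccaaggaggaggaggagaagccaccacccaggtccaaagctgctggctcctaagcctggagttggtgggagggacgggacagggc
Il22ra1: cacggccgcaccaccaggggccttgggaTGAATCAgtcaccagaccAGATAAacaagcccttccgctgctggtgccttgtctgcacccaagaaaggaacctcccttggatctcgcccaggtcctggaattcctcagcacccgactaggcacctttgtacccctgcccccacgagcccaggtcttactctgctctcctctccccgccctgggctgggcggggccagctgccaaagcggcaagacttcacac
The Il22ra1 window held AGATAA at 204 and TGAATCA at 222 bases before the start, and none of the searched letters was in the Il17rc window. TGANTCA was in 6.75% of all windows and in 9 of 55 interleukin windows (16.4%). These are shares of windows, not of the 42 genes, so a site near several starts of a gene can count more than once. The difference in shares was not tested. The STAT motif TTCNNNGAA was in 7.02% of all windows and 7.27% of interleukin windows, and in neither window shown. The windows of Il17rc and Il22ra1 were 57.6% and 62.4% G and C, and the distal and proximal Il1rl1 windows were 37.6% and 46.4%, against a median of 52.4% over all windows.

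Receptor chains for IL-4 and IL-13, which drive type 2 responses in goblet and tuft cells, overlapped between groups. Il13ra1, an X-linked gene, was at 84.4, 104 and 101 in controls and 95.9, 100 and 118 in treated mice, a log2 fold change of 0.12 (95% interval -0.11 to 0.36). Il4ra was at 58.1, 78.4 and 78.8 in controls and 73.5, 62.0 and 60.3 in treated mice, a log2 fold change of -0.13 (-0.42 to 0.16). Neither gene had an adjusted p under 0.6 by limma. Without the first control the log2 fold changes were 0.03 for Il13ra1 and -0.27 for Il4ra, and without the third control that of Il4ra was -0.05.

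In the IL-6 family, Il6st encodes gp130, the signalling chain common to the family. Il6st was at 61.6, 74.6 and 88.2 in controls and 76.8, 72.1 and 73.2 in treated mice, with treated mice inside the control range. Il6ra, the chain that binds IL-6 itself, is among genes of immune regulation that the study's text gives as upregulated in treated crypts. Here Il6ra was at 2.41, 2.01 and 1.72 in controls and 2.16, 3.67 and 5.37 in treated mice. The first treated mouse lay among the controls and the others above them. The means of Il6ra were 2.04 ± 0.346 and 3.73 ± 1.60 (SD, n = 3 each), and the log2 fold change of 0.76 (SE 0.32, 95% interval 0.03 to 1.49) had an unadjusted p of 0.0419 and an adjusted p of 0.351 by limma. The study's test was edgeR, and no adjusted p below 0.05 was reached for Il6ra here by limma. Without the third treated mouse the log2 fold change of Il6ra was 0.46, and without the first it was 1.10. Il11ra1, the IL-11 receptor, was at 9.99, 8.84 and 7.72 in controls and 9.71, 9.23 and 12.4 in treated mice, and it overlaps Galt on the same strand.

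Receptors of the common γ chain family are lymphocyte genes for the most part. Of those in this paragraph, Il15ra, which epithelial cells use to present IL-15, had the highest level. Il15ra was at 14.9, 15.2 and 19.2 in controls and 14.5, 14.7 and 17.4 in treated mice. Il2rg, the X-linked γ chain itself, was at 1.45, 1.56 and 1.46 in controls and 0.576, 1.34 and 1.62 in treated mice, with 1 treated mouse above the controls. Its log2 fold change was -0.42 with all mice, -0.69 without the third treated mouse and -0.01 without the first. Il9r, a receptor of mast cells and lymphocytes, was at 0.586, 0.362 and 0.283 in controls and 0.246, 0.247 and 0.200 in treated mice, without overlap but with a log2 fold change of -0.59 (adjusted p = 0.572 by limma), which was -0.35 without the first control. Il2rb, Il2ra, Il7r and Il21r had lower mean log2 values in treated mice and overlapping groups, with log2 fold changes from -0.28 to -0.01.

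Among the remaining receptors of leukocytes, Il12rb1, a chain of the IL-12 and IL-23 receptors, was at 1.16, 0.615 and 0.960 in controls and 0.576, 0.581 and 0.466 in treated mice. All treated mice were below all controls, the nearest by a narrow margin, and the log2 fold change was -0.63 (adjusted p = 0.483 by limma). Il10ra, the IL-10 binding chain of macrophages and lymphocytes, was at 1.13, 1.85 and 1.05 in controls and 0.322, 0.191 and 1.87 in treated mice. The third treated mouse was the highest of all and the other treated mice the lowest. The log2 fold change of Il10ra was -1.17 (adjusted p = 0.477 by limma) with all mice and -2.0 (adjusted p = 0.0536) without the third treated mouse, and it was -0.62 without the second treated mouse. Il3ra, Il20rb, Il27ra, Il12rb2 and Il5ra overlapped between groups, and Il1rapl1, a gene of the nervous system, reached the floor in 2 of 6 mice.

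The third treated mouse differed from the other treated mice at several interleukin genes. Its value was over 2 times that of each of the others for Il10ra, Il1b, Il1a, Il22ra2 and Il17c, which is 5 of 49 tested genes (10.2%, against 5.59% of all genes). It was the highest of the treated mice for 23 of 49 (46.9%, against 32.9%). The same mouse had the highest macrophage sum of the treated mice, at 116 against 63.8 and 62.0, with controls from 89.8 to 124. Cd14, the largest part of each sum, was at 52.1, 54.1 and 49.2 in treated mice and 60.6 to 77.3 in controls. Lyz2 was at 11.9, 24.3 and 11.2 in controls and 1.59, 1.65 and 30.9 in treated mice. Csf1r, Adgre1, C1qa, C1qb and C1qc were likewise highest of all in the third treated mouse, and Cd14, Cd68 and Mrc1 were not. All 9 macrophage markers had a lower mean log2 value in treated mice. Fibroblast markers summed to 113 in that mouse against 25.1 and 33.8, with controls from 60.2 to 77.1. No marker of either list was at 0 in all mice, and the part of these cells in the interleukin values was not tested. The log2 fold change of Il17c was -0.44 with all mice and -1.07 without that mouse.

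**Figure D5:**
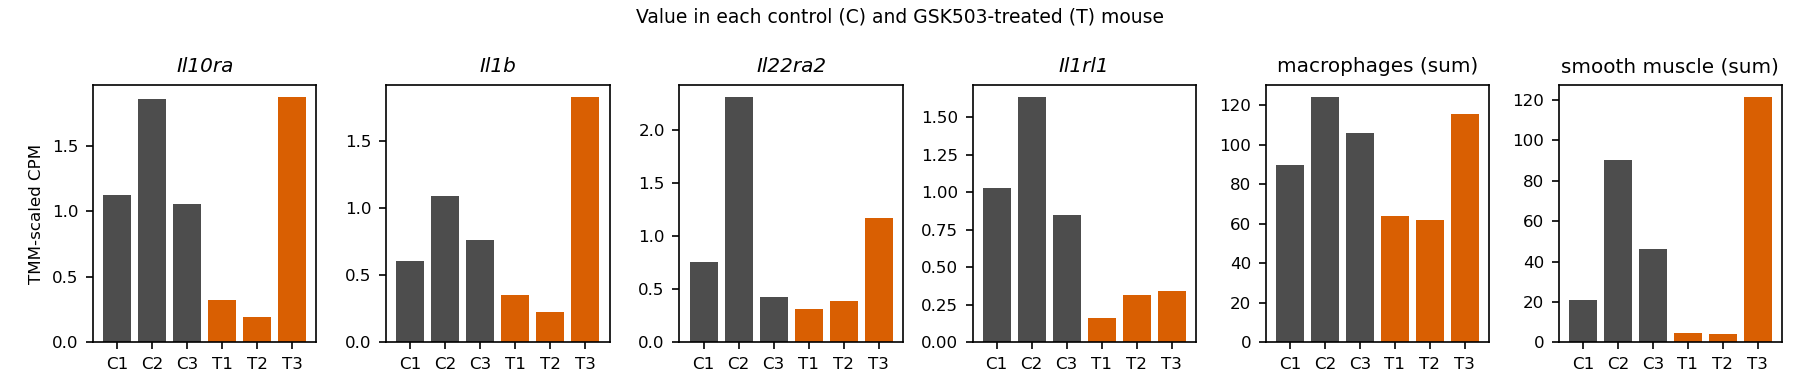
TMM-scaled CPM in each control (C1 to C3, grey) and GSK503-treated (T1 to T3, orange) mouse for 4 interleukin genes, beside the summed level of the macrophage and smooth muscle markers; bars start at 0 and each panel has its own axis. Il10ra, Il1b and both marker sums were higher in T3 than in T1 and T2, and Il1rl1 was at 0.161, 0.319 and 0.341 in the treated mice.

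Genes of the same pathways that do not carry an interleukin name were taken as lists, chosen with earlier results of these data known, of which 74 genes were tested. Higher and lower here refer to the mean log2 value. At an adjusted p below 0.05 by limma 3 were higher and 1 was lower in treated mice (5.41%, against 0.642% of all genes), and at 0.1 the numbers were 4 and 3 (9.46%, against 1.97%). The JAK and STAT genes (11 tested) and the receptor chains and relatives such as Osmr, Crlf2 and Csf2rb (8 tested) held none past 0.1. Stat3, the main STAT of IL-6 and IL-22, was at 147, 169 and 198 in controls and 168, 152 and 155 in treated mice, and Stat6, that of IL-4 and IL-13, was at 108, 111 and 117 in controls and 113, 112 and 110 in treated mice. Of 12 feedback genes none passed, although Socs1, Socs2, Socs5 and Cish, inhibitors of JAK signalling, had unadjusted p below 0.05, with log2 fold changes of 0.64, 0.35, 0.46 and 0.44 and adjusted p from 0.184 to 0.329 by limma. These are 33.3% of the list, against 7.06% of all genes with higher values; with library-total scaling 1 feedback gene was higher and 1 lower at that p, and without the first control 2 were higher and 3 lower. Every treated mouse lay above every control for Socs2, Socs5 and Cish, as did 2 of 3 treated mice for Socs1. Under library-total scaling those of Socs1 and Socs2 were 0.53 and 0.24.

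Of 15 genes that relay IL-1 and IL-17 signals, 10 were lower, and Nfkbiz passed 0.1. Over all genes 8511 of 16670 were lower. Nfkbiz encodes IκBζ, which epithelial cells induce on IL-17 stimulation, and was at 107, 117 and 136 in controls and 92.8, 88.5 and 79.2 in treated mice, a log2 fold change of -0.46 (adjusted p = 0.0801 by limma, 0.0757 to 0.285 when 1 mouse at a time was left out). All 10 tested genes for activation of IL-1 family precursors were lower, with log2 fold changes from -0.22 to -0.06 and none past an adjusted p of 0.1. Casp1, which cuts the precursors of IL-1β and IL-18, was at 191, 187 and 163 in controls and 156, 160 and 169 in treated mice.

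Epithelial genes known to answer IL-22 or IL-17 were lower in 13 of 14 cases, and 1 of them passed an adjusted p of 0.05 (7.14%, against 0.144% of all genes called lower). Without the second control, the third control or the third treated mouse 8 of 12 tested genes were lower, and by limma-voom 10 of 14 were. Lcn2, the siderophore-binding lipocalin, was at 2.76, 2.64 and 2.38 in controls and 0.551, 0.645 and 0.724 in treated mice, and fell by 1.87 on the log2 scale (adjusted p = 0.0157 by limma). When 1 mouse at a time was left out, that adjusted p ran from 0.0179 to 0.0927 and was under 0.05 only without the third treated mouse. Nos2, inducible nitric oxide synthase, was at 46.6, 54.9 and 75.6 in controls and 26.9, 39.4 and 31.6 in treated mice, with an adjusted p of 0.0806 by limma (0.0681 to 0.206 when 1 mouse was left out). The antimicrobial lectins Reg3b (453 to 3415 in controls and 712 to 1390 in treated mice) and Reg3g overlapped widely.

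Epithelial genes known to answer IL-4 or IL-13 were higher in all 4 cases tested, against 8159 of 16670 over all genes, and 3 passed an adjusted p of 0.05, against 0.498% of all genes called higher. Retnlb, the goblet cell resistin-like protein, was at 218, 125 and 116 in controls and 564, 586 and 484 in treated mice, and rose by 1.88 on the log2 scale (adjusted p = 0.00423 by limma). Its adjusted p stayed between 8.9e-05 and 0.0310 when 1 mouse at a time was left out. Clca1 rose by 2.38 (adjusted p = 0.0294) and Spdef, the goblet cell transcription factor, by 0.68 (adjusted p = 0.0459), and both lost the call when some mice were left out, with adjusted p of up to 0.167 and 0.226. All 4 genes of the list are goblet cell products or regulators. The 4 goblet markers listed for the check of cell types were likewise higher, but 2 of them, Spdef and Fcgbp, are in both lists. Both lists were chosen with earlier results of these data known. The 4 tuft markers summed to 22.7 to 34.3 in controls and 43.1 to 49.5 in treated mice. The receptor genes Il4ra and Il13ra1 overlapped between groups, and the part of goblet cells in the response genes was not tested.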

How the data were processed

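Crypt RNA-Seq values of 3 control mice were compared with those of 3 mice given GSK503, with 1 library per mouse. Per the submitters' notes and the study's methods, reads were aligned with STAR to GRCm39, quantified per gene with RSEM and scaled with edgeR's TMM. The deposited signal is the authors' TMM-scaled estimated count relative to library size (TMM-scaled CPM), not a raw count; the strand setting of the counting is not given in the sources used here, so overlapping genes on opposite strands may share reads. Column sums ran from 975566 to 1076042. Of values below 10, 80.7 to 83.3% were whole multiples of 1 step per library (tolerance 0.02), which gave the estimated totals.

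The 16670 genes that reached 0.1 in 3 or more mice were tested (1379 were left out) on log2(value + 0.1) with limma 3.58.1 (R 4.3.3; intensity trend, two-sided, Benjamini-Hochberg over all genes), so fold changes of low genes are understated. An exact permutation test of 3 against 3 mice cannot go below p = 0.1. The fit was also run on simulated data. Changes were set there only in genes with many estimated reads, so that run does not cover the low interleukin genes. Genes were given with values in every mouse if they had an adjusted p below 0.1, were among the 8 ligands or 12 receptors of highest mean, or had an unadjusted p below 0.05 with groups that did not overlap; Il6ra was added because the study names it. Other genes named with values, and all within-mouse ratios, were chosen after the values were seen. Members and lists were chosen with earlier results of these data known. Coordinates and exon lengths came from the GRCm39 annotation (96.0% of symbols matched), and promoters from RefSeq.

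Alternatives were library-total scaling, no or a stricter filter, pseudocounts of 0.02 and 1, limma without trend, robust limma, limma-voom on the estimated counts, X- and Y-linked genes left out, the replicate block, and leaving out each mouse. Same-numbered mice did not deviate together, and no block was used in the fit reported.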

Additional observations from a re-analysis of the deposited data

How the results depend on the processing

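No interleukin gene passed an adjusted p of 0.05 by limma under any of the 16 alternatives. At an adjusted p below 0.1 the number passing, 1 as reported, was 2 with library-total scaling (Il1rl1 and Il17ra), 0 with no filter, with the filter at 1 (which leaves Il1rl1 untested), with a pseudocount of 0.02, without the intensity trend, by limma-voom and with the replicate block, and 0 to 3 when 1 mouse was left out (3 without the third treated mouse: Il10ra, Il17rc and Il1rl1). The 107 calls over all genes became 261 with library-total scaling, 70 with no filter, 16 without the intensity trend and 33 with the replicate block, and 29 to 216 when 1 mouse was left out (29 without the second and 216 without the third treated mouse). Calls over all genes were higher in 77.6% of cases as deposited and in 31.8% with library-total scaling. Same-numbered control and treated mice had deviations correlated at 0.03, -0.13 and -0.12, and differently numbered ones at -0.17 to 0.22. These values showed no sign of pairing by number, but with so few mice they cannot exclude it. The ligand median was -0.14 to 0.04 and the receptor median -0.09 to 0.02 when 1 mouse was left out.

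Of 28 genes followed through the alternatives, 19 kept their sign in each. With library-total scaling the log2 fold change turned to -0.065 for Il15, -0.11 for Il6st, -0.083 for Il10rb and -0.048 for Il17re, and by limma-voom to 0.0016 for Il7. When 1 mouse was left out it ran from -0.13 to 0.10 for Il18, -0.12 to 0.091 for Il7, -0.0029 to 0.10 for Il15, -1.23 to 0.059 for Il1b, -0.13 to 0.13 for Il6st, -0.0086 to 0.085 for Il10rb, -0.020 to 0.18 for Il17re, -0.16 to 0.039 for Il15ra and -0.14 to 0.092 for Il1rap. The cause was not tested. Depth limits the genes near 1 CPM or below, of which Il1rl1 had 19 to 41 estimated reads in treated mice.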
